A study of Bos taurus with 6 samples.

Results

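The genes described here are targets of the transcription factor p53, led by CDKN1A, in primary bovine myoblasts treated with resveratrol. A list of 30 genes known as p53 targets was matched to the mRNA table. The members were chosen by whether their symbol is paired with an Ensembl identifier in the paper's sheet of differentially expressed (DE) mRNAs, and 13 of the 30 were. That sheet was itself selected on the comparison of RSV with DMSO in these samples, so the direction and size of each difference below are a description and were not tested. The other 17 targets, SESN1, SESN2, GADD45A, BBC3, FAS, TP53I3, RRM2B, DDB2, PHLDA3, PLK2, PLK3, PML, TRIAP1, FDXR, EDA2R, SPATA18 and TNFRSF10D, had no identifier paired with them in the sheet as it was at hand, which is shortened, and were not analysed here.

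p53 is a transcription factor that is stabilised by DNA damage and other stresses. It then switches on genes that halt the cell cycle, repair DNA, start cell death and, as a brake, remove p53 itself. CDKN1A encodes p21, an inhibitor of cyclin-dependent kinases that is also switched on, with or without p53, when myoblasts leave the cell cycle to differentiate.

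The cells were primary myoblasts, the dividing precursors of muscle fibers, grown from the longissimus dorsi muscle of fetal beef cattle. All cultures were kept in differentiation medium for 4 days. In the RSV group 3 cultures received resveratrol, a plant polyphenol, at 20 μM, and in the DMSO group 3 cultures received only its solvent. The methods describe separate cell collections for the cultures and do not say how many fetuses they came from.

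The deposited table gives 1 mean of normalized reads per group and no column for a single sample. Each mean was read as an average of 3 whole read counts divided by the size factors of their libraries, which correct for sequencing depth, and this gave 1 combination of whole reads for 20354 of the 20459 mRNAs with reads (99.5%). The libraries obtained in this way are called A, B and C (RSV) and D, E and F (DMSO), in order of falling size factor, and they are not linked to the replicate numbers of the sample labels. Totals of recovered reads ran from 13619821 to 16086661 per library. These totals are not the full depth, since 105 mRNAs gave no such combination and means above 25000 were not searched. Library C stood apart most often within the RSV group. Of the 11279 mRNAs averaging 100 or more normalized reads, C was the highest or the lowest of the 3 RSV libraries for 84.8%. The same held for B in 70.7% and for A in 44.5%. Values without C are therefore given beside those that rest on it.

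All 13 p53 target genes had more normalized reads in every RSV library than in any DMSO library. The same held for 26.8% of the 14924 mRNAs averaging 10 or more normalized reads. It held for 44% of the 1818 such mRNAs that have a name, which are DE mRNAs as the members are, and for all 800 of these with a higher mean in RSV, so that for a named gene the direction fixes the separation. The median log2 fold change (log2FC, the log2 ratio of the RSV mean to the DMSO mean) of the 13 genes was 1.06, a 2.08-fold difference, with values from 0.55 to 1.97. The median over the 14924 mRNAs was 0.01, and over those 800 named mRNAs it was 0.71. A log2FC of at least 1 was found in 7 of the 13 genes, against 5.12% of the 14924 mRNAs. Unlike the members, these 14924 were not limited to DE mRNAs. The share was not computed over the 800 named mRNAs, so how much of the gap reflects the choice of members is unknown. Without library C the median of the 13 genes was 0.98. In bulk RNA, more cells with a transcript and more transcript per cell cannot be told apart.

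**Figure D1:**
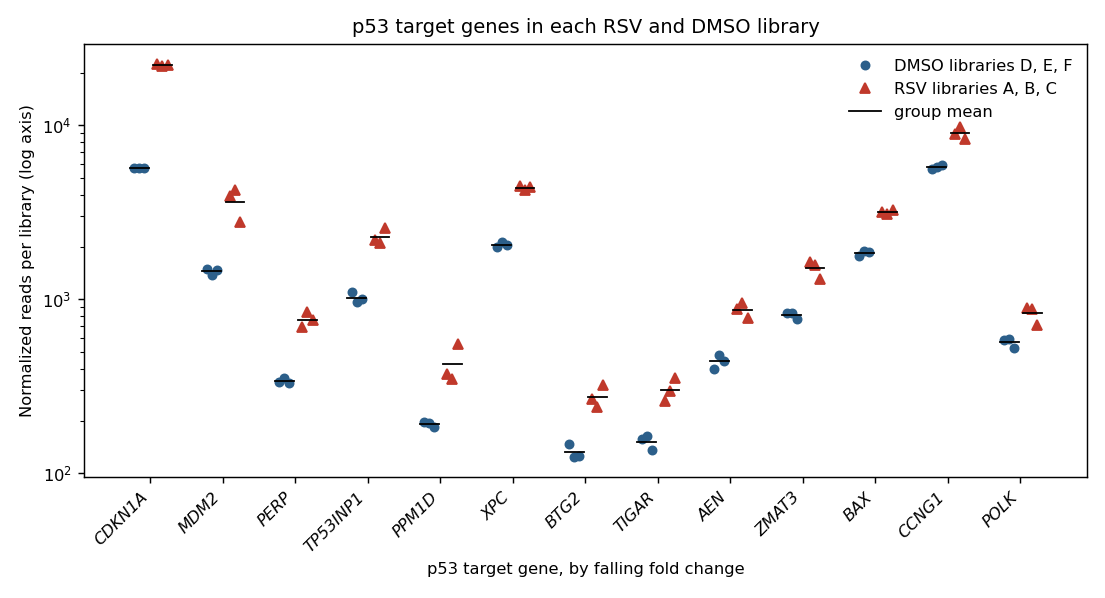
Normalized reads of the 13 p53 target genes in each library on a log axis, with DMSO libraries as blue circles, RSV libraries as red triangles and group means as lines; genes are ordered by falling fold change. For each gene the 3 RSV libraries lie above the 3 DMSO libraries, with the widest gap for CDKN1A.

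Of 5 listed genes that halt the cell cycle, CDKN1A and BTG2 had values, and CDKN1A had the largest log2FC of the 13 genes. CDKN1A (ENSBTAG00000008353) had 22632, 21990 and 22215 normalized reads in the RSV libraries A, B and C. In the DMSO libraries D, E and F it had 5722, 5667 and 5659. The lowest RSV library was thus 3.84 times the highest DMSO library, while the libraries of a group differed by a few percent.

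The CDKN1A means were 22279 ± 326 in RSV and 5683 ± 34.1 in DMSO (SD, n = 3 libraries each). Its log2FC was 1.97 with a standard error of 0.01, which was taken from the spread of the log2 values over the libraries of both groups. This is a 3.92-fold difference. Of the 14924 mRNAs, 142 (0.951%) had a log2FC as large or larger. For its RSV mean 1 combination of whole reads was found and 0.048 were expected by chance, more than for any other member. Its RSV values per library are thus the least secure of the set. The digits of the group mean and the fold change do not depend on them, but the decimal place of the mean rests on the same search.

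BTG2 (ENSBTAG00000015711) encodes an antiproliferative protein that acts with mRNA deadenylases. It had 267.5, 240 and 320.6 normalized reads in libraries A, B and C and 147.4, 124 and 126.4 in D, E and F. The log2FC was 1.06 (standard error 0.15), and 0.94 without library C. The DMSO values of BTG2 rested on the fewest reads of the 13 genes, 112 to 142 whole reads per library.

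**Figure D2:**
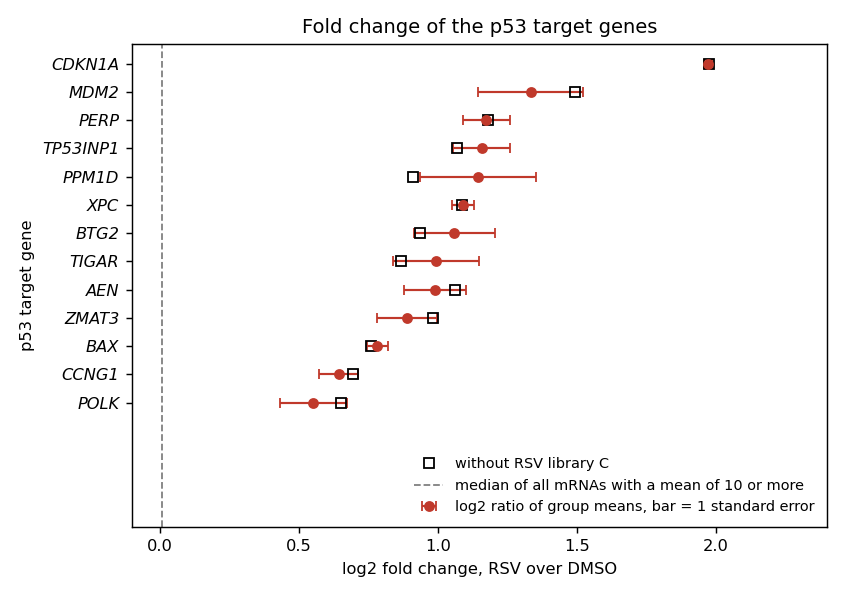
log2 fold change of each p53 target gene (filled circles, bars of 1 standard error, n = 3 RSV and 3 DMSO libraries), the same without RSV library C (open squares) and the median of all mRNAs averaging 10 or more normalized reads (dashed line, 0.01). CDKN1A at 1.97 stands to the right of all other members, the next of which is MDM2 at 1.33.

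All 3 listed genes that act back on p53 had values, and they ranged from the second largest log2FC of the members (MDM2) to the second smallest (CCNG1). MDM2 (ENSBTAG00000010422), the ubiquitin ligase that marks p53 for degradation, had 3930, 4231 and 2793 normalized reads in libraries A, B and C. The DMSO libraries D, E and F held 1495, 1377 and 1477. Library C lay below A and B and above the DMSO libraries, the latter as for every named mRNA with a higher RSV mean. The log2FC of MDM2 was 1.33 (standard error 0.19) and without library C it was 1.49.

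PPM1D (ENSBTAG00000009427), the phosphatase WIP1 that removes activating phosphates from p53 and its kinases, had the opposite order among the RSV libraries. It had 371.3, 349.8 and 551.2 normalized reads in A, B and C, and 197.2, 194.9 and 183.9 in D, E and F. The log2FC of PPM1D was 1.14 (standard error 0.21), the largest standard error of the members, and 0.91 without library C.

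CCNG1 (ENSBTAG00000006607) encodes cyclin G1, which brings a phosphatase to MDM2. It had 8888, 9839 and 8369 normalized reads in A, B and C and 5640, 5773 and 5945 in D, E and F. Its log2FC of 0.64 (standard error 0.07) was close to that of POLK, the smallest of the members. Its lowest RSV library was 1.41 times its highest DMSO library.

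The members linked to cell death lay close to 1 on the log2 scale, apart from BAX. PERP (ENSBTAG00000020097), a membrane protein of desmosomes and an effector of p53-dependent death, had 695.8, 842.6 and 757 normalized reads in A, B and C. In D, E and F it had 336.2, 351.2 and 330.6, which gives a log2FC of 1.17 (standard error 0.08). The lowest RSV library was 1.98 times the highest DMSO library.

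TP53INP1 (ENSBTAG00000026232) encodes a stress protein that takes part in p53 phosphorylation and autophagy. Its normalized reads were 2188, 2112 and 2558 in A, B and C and 1104, 961.9 and 1010 in D, E and F. The log2FC was 1.16 (standard error 0.10), and 1.07 without library C.

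AEN (ENSBTAG00000017632), a nuclease that cuts DNA in dying cells, had 885.2, 950.6 and 782.6 normalized reads in A, B and C and 400.5, 478.3 and 440 in D, E and F. Its log2FC was 0.99 (standard error 0.11). BAX (ENSBTAG00000013340), which forms pores in the outer mitochondrial membrane, had 3161, 3093 and 3285 normalized reads in A, B and C and 1785, 1900 and 1862 in D, E and F. The BAX log2FC was smaller, 0.78, with a standard error of 0.04, one of the 3 smallest among the members. Neither gene had overlapping groups, as for every named mRNA with a higher RSV mean.

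DNA repair was represented by XPC and POLK, and these differed in size. XPC (ENSBTAG00000007362), which finds damaged bases for nucleotide excision repair, had 4495, 4256 and 4416 normalized reads in A, B and C and 1990, 2143 and 2053 in D, E and F. Its log2FC was 1.09 (standard error 0.04). The spread within each group was small beside this difference, and leaving out library C moved the log2FC to 1.09 again.

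POLK (ENSBTAG00000004028), a DNA polymerase that copies past damaged bases, had 897.1, 882.3 and 712.4 normalized reads in A, B and C. The DMSO libraries D, E and F held 587.3, 588.8 and 524.6. With a log2FC of 0.55 (standard error 0.12), POLK had the smallest difference of the 13 genes, and its lowest RSV library was 1.21 times its highest DMSO library. Of the 14924 mRNAs, 12.5% had a log2FC as large or larger than that of POLK.

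The last members act in RNA binding and metabolism. ZMAT3 (ENSBTAG00000012463), an RNA-binding zinc finger protein, had 1648, 1571 and 1307 normalized reads in A, B and C and 836.4, 831.6 and 775.1 in D, E and F. Its log2FC was 0.89 (standard error 0.11). TIGAR (ENSBTAG00000016650), a phosphatase that lowers glycolysis and feeds the pentose phosphate pathway, had 259.2, 296.3 and 353.8 normalized reads in A, B and C and 156.7, 164.7 and 135.4 in D, E and F. The TIGAR log2FC was 0.99 (standard error 0.16), and 0.87 without library C. For both genes the groups were apart, as for every named mRNA with a higher RSV mean. Library C was the lowest RSV library for ZMAT3 and the highest for TIGAR.

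**Figure D3:**
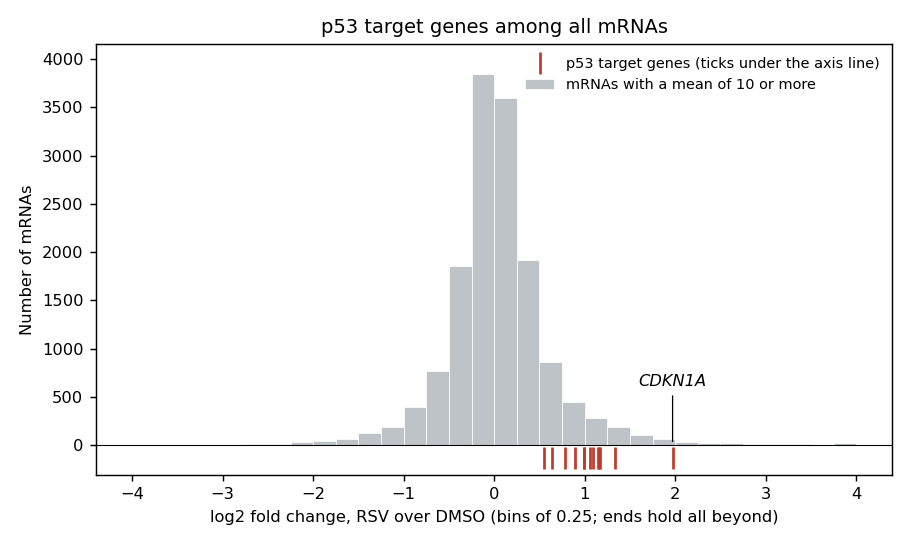
Number of mRNAs by log2 fold change in bins of 0.25 (grey bars, 14924 mRNAs averaging 10 or more normalized reads), with the 13 p53 target genes as red ticks. The members lie between 0.55 and 1.97, on the right flank of the distribution, and CDKN1A is among the 142 mRNAs at or beyond 1.97.

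The spread between libraries enters the P-value that chose the DE mRNAs, so it too is given as a description. The coefficient of variation (CV, the SD over the mean) among the RSV libraries had a median of 10.4% over the 13 genes and ranged from 1.46% for CDKN1A to 26.1% for PPM1D. Among the DMSO libraries the median was 4.19%, from 0.6% for CDKN1A to 9.94% for TIGAR. The CV was larger in RSV than in DMSO for 11 of the 13 genes, the exceptions being BAX and XPC. Over the 11279 mRNAs averaging 100 or more normalized reads the median CV was 7.98% in RSV and 4.85% in DMSO, and 71.1% had the larger CV in RSV. Without library C the median CV of the members in RSV was 4.23%.

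Within the RSV group the members fell on both sides of library C. PPM1D, TIGAR, BTG2, TP53INP1 and BAX were highest in C, and PPM1D had 1.53 times the mean of A and B there. MDM2, POLK, ZMAT3, AEN and CCNG1 were lowest in C, and MDM2 had 0.684 times the mean of A and B. CDKN1A, XPC and PERP lay between. Such divergence was common, since C was the highest RSV library for 40.5% of the 11279 mRNAs and the lowest for 44.2%. The log2 ratio of C to the mean of A and B had an SD of 0.32 over the members and 0.36 over those mRNAs. PPM1D and MDM2 were toward the ends of that distribution, with 2.07% of the mRNAs at or above the ratio of PPM1D and 6.28% at or below that of MDM2. The order of the RSV libraries was thus not shared by the members. All members had a higher mean in RSV than in DMSO, but they were chosen among DE mRNAs of that same comparison. For a named mRNA with a higher RSV mean the separation from DMSO is fixed, so it is not set against the library order as a finding.

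**Figure D4:**
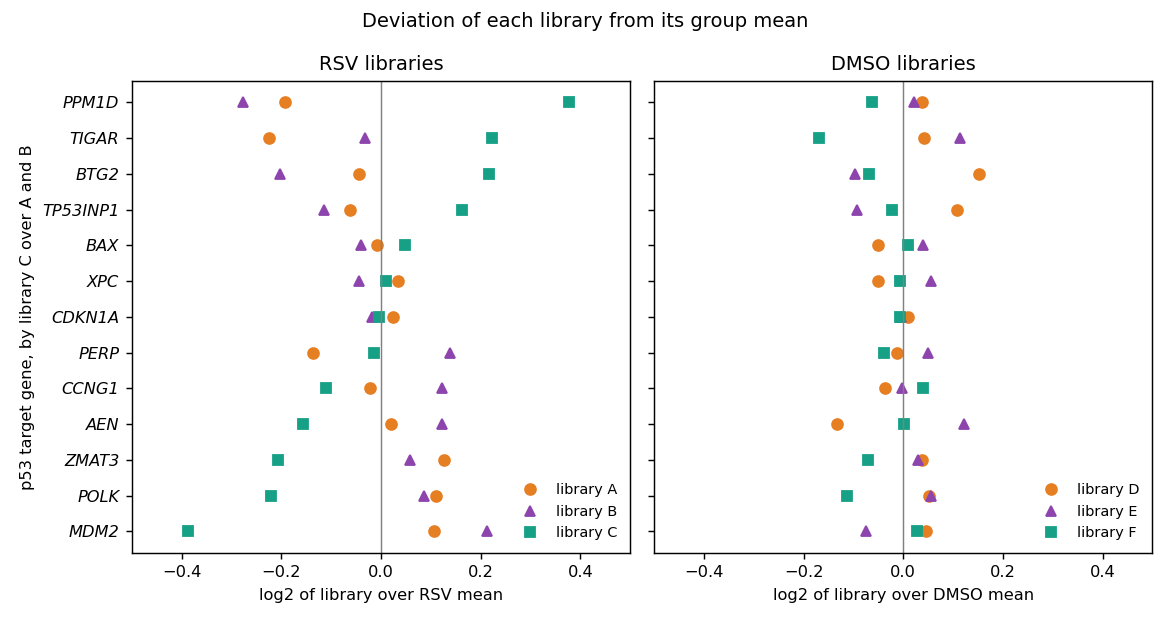
log2 of each library over the mean of its group for the 13 p53 target genes, RSV libraries A, B and C on the left and DMSO libraries D, E and F on the right, ordered by library C over the mean of A and B. Library C lies between −0.39 (MDM2) and 0.38 (PPM1D), and CDKN1A between −0.02 and 0.02 in the RSV libraries.

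Other genes of the pathway were looked up in lists written for this comparison, and again a gene could be found only if it had a name as a DE mRNA. Of 18 regulators of p53, 2 were found. MDM4, the relative of MDM2 that blocks the activation domain of p53, had 1074, 1157 and 777.9 normalized reads in A, B and C and 492.9, 418.9 and 443.4 in D, E and F. Its log2FC of 1.15 (standard error 0.19) and its low value in library C resemble those of MDM2. SIRT1, a deacetylase of p53 that has been studied as a mediator of resveratrol, had 887, 939.5 and 1081 normalized reads in A, B and C and 719.1, 673.2 and 770.6 in D, E and F, a log2FC of 0.43 (standard error 0.10).

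Of 68 further p53 targets, 23 were found. Every RSV library was above every DMSO library for 20 of them and below for 3, with a median log2FC of 0.87. Over the 14924 mRNAs these shares were 26.8% above and 26.7% below, and over the named mRNAs 44% were above. The 0.87 includes the 3 lower genes. The median log2FC was −0.40 over all 1818 named mRNAs and 0.71 over those with a higher RSV mean only. Nothing particular to the list is read from its count or its median. The largest log2FC was that of PLTP, a phospholipid transfer protein, with 3604, 3071 and 3534 normalized reads in A, B and C and 134.9, 128.2 and 110.6 in D, E and F (log2FC 4.77, standard error 0.11). PGF, a growth factor for blood vessels, and E2F7, a repressor of the cell cycle, followed with log2FC values of 3.85 (standard error 0.47) and 2.63 (standard error 0.49). Both had few reads, with 3.113 to 5.641 and 5.641 to 13.55 normalized reads in the DMSO libraries. The 3 targets with lower RSV means, named after their values were seen, were FAM210B, ANXA4 and RHOC, with log2FC values of −0.49, −0.42 and −0.34.

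Of 49 cell cycle genes known to be repressed when p21 is active, 5 were found, and for all 5 the RSV libraries were above the DMSO libraries, with a median log2FC of 1.25. The same separation was found for 26.8% of the 14924 mRNAs and 44% of the named mRNAs, and for every named mRNA with a higher RSV mean. E2F1, the activator of genes for DNA synthesis, had 372.3, 465.2 and 237.2 normalized reads in A, B and C and 93.39, 91.71 and 93.64 in D, E and F (log2FC 1.95, standard error 0.29). TK1, thymidine kinase, had a log2FC of 1.42 (standard error 0.29), and CDC45, a part of the replicative helicase, one of 1.03 (standard error 0.21). E2F1, TK1 and CDC45 were lowest in library C among the RSV libraries, as MDM2 and MDM4 were. CCNE2 and CCNE1, the E cyclins that drive entry into DNA synthesis and are bound by p21, had log2FC values of 1.25 and 0.97 and were highest in C. The 44 other genes of the list were not found by name, so the count does not describe the list as a whole.

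Among 14 CDK inhibitors, G1 cyclins and pocket proteins only CDKN1B was found. It encodes p27, a relative of p21, and had 950.4, 910.9 and 905 normalized reads in A, B and C and 1204, 1240 and 1203 in D, E and F. The log2FC of CDKN1B was −0.40 (standard error 0.03), opposite in sign to that of CDKN1A. Of 19 regulators of apoptosis beside BAX, 2 were found. BCL2L1, whose main product BCL-XL restrains BAX, had a log2FC of 0.74 (standard error 0.17), and CASP8, the initiator caspase of death receptors, had one of −0.95 (standard error 0.13).

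The 5 named mRNAs with a log2FC nearest to the 1.97 of CDKN1A over the 6 libraries were FAM83H, SFXN5, HES2, DLX3 and TXNRD1, with values from 1.95 to 1.99. TXNRD1, the cytosolic thioredoxin reductase, had from 7046 to 10501 normalized reads in RSV and from 2073 to 2140 in DMSO. The standard error of TXNRD1 was 0.18, and the other 4 had standard errors from 0.10 to 0.34. Those 4 had far fewer reads, with DMSO means from 11.65 to 202.4 normalized reads, against 5683 for CDKN1A. The spread between libraries was larger for each of the 5 than for CDKN1A, though for those 4 not at like numbers of reads. The RSV values of CDKN1A per library are also the least secure of the members.

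Markers of cell types were looked up in the same way, to set them beside these values. The muscle markers TNNT1, TNNI1 and MYMK had log2FC values of 0.60, 0.36 and 0.71, with DMSO means of 2510, 3096 and 1094 normalized reads, and the other 15 of 18 muscle markers had no name or no recovered reads. Of 8 fibroblast markers 3 had recovered reads, and 3 more had a name only. Those with a name only lacked unique reads or a unique identifier, and their direction was not seen. PDGFRA, LUM and FAP had DMSO means of 9252, 19166 and 3130 normalized reads and were lower in RSV, with log2FC values of −0.42, −0.82 and −1.12. Of 5 smooth muscle and pericyte markers 2 had a name and only CNN1 had recovered reads. CNN1 had a log2FC of −1.08 and varied from 1308 to 3719 normalized reads among the RSV libraries. Of 4 immune markers only CD14 was found, with 27.69 to 46.48 normalized reads in RSV and 8.337 to 10.38 in DMSO. No endothelial or adipocyte marker was found. The cultures thus held mRNAs of muscle and of fibroblast markers in both groups, in unequal amounts between them, and the part of this in the p53 target values was not tested.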

How the data were processed

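mRNA was sequenced in 3 RSV and 3 DMSO samples, grouped by the treatment in the labels. The deposited table holds group means of read counts divided by size factors, made by the authors with DESeq, and the authors' log2 fold changes and P-values, which were not used as results. The aligner, counter, annotation and use of strand for the mRNA reads are not given in the sources used here. The submitters' processing notes name Bowtie 0.12.9, which the methods tie to miRNA reads, and miRNA values were not used.

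The decimal point was missing from means of 1 or more. Each was written with 15 digits as a sum of 3 whole counts over size factors (1.09, 1.08 and 1.05 in RSV, 0.964, 0.960 and 0.886 in DMSO). All combinations were tried up to a mean of 3000 normalized reads, counts within 50% of the mean up to 10000, and within 25% up to 25000. The digits of the log2 fold change limited where the decimal points of the RSV and DMSO means could lie relative to each other. The smallest such pair of means with a fitting combination in both groups was taken. Larger pairs were then not tried, so a combination is unique only at that placement. A unique combination with at most 0.05 expected by chance was accepted. In a check on simulated data for 1950 mRNAs, 1948 were unique and all 1948 right. The simulated reads were drawn around those of mRNAs already decoded, with the same size factors and number format. The check therefore does not cover mRNAs that failed or a wrong assumption about the format. The 105 mRNAs without unique reads were left out. The digits of a group mean and the fold change come from the deposited values. The decimal place of a mean and the values per library come from this search.

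Means, SDs, log2 ratios of means and standard errors were computed with Python 3.11.15, numpy 2.4.6, pandas 2.3.3 and numba 0.67.0, and figures with matplotlib 3.10.9. No test of RSV against DMSO was made, since that comparison chose the members. The sheet named 1863 identifiers, and only its identifiers and names were used. The 30 targets and the other lists were chosen with earlier results of these data known. An item of the cell cycle list is not reported here and was left out of that list's counts. All 13 members were named in the text, as were the 3 genes with the largest absolute log2FC of each other list, or all where 5 or fewer were found, and the 5 named mRNAs nearest to CDKN1A. RefSeq genes on ARS-UCD2.0 included all 13 symbols and none of the deposited identifiers, so no coordinates are given. In it 5 members overlap another gene (BAX with TULP2, TP53INP1 and ZMAT3 with long non-coding RNAs, XPC with an rRNA, PPM1D with a pseudogene), whose reads cannot be told apart without strand. Alternatives were other scalings, pseudocounts, minimum means and each library left out.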

Additional observations from a re-analysis of the deposited data

How the results depend on the processing

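Each log2FC of the 13 genes was recomputed under 10 alternatives. None of the 130 values changed sign, the lowest being 0.49, and 127 stayed within the limit set from the spread between libraries. This limit was wider than 1 standard error. PPM1D without library C, at 0.91 against 1.14 with a standard error of 0.21, counted as within it. Scaling by the total of recovered reads (which lacks the 105 mRNAs without unique reads) raised the log2FC of CDKN1A to 2.05, and also moved BAX (0.86) and XPC (1.17) beyond their spread; under it the median of all mRNAs was 0.08. Scaling by the upper quartile and pseudocounts of 1 or 10 moved no member beyond its spread. With 1 library left out, the log2FC of CDKN1A lay between 1.96 and 1.98 and the median of the members between 0.98 and 1.10. All 13 genes had every RSV library above every DMSO library under both other scalings too; leaving out a library cannot undo such a separation and says nothing of its stability. The median CV of the members among the RSV libraries lay between 4.23% and 13% with 1 library left out, and was lowest without library C. The share of mRNAs with all RSV libraries above all DMSO libraries was 21.4% to 34% under other scalings or minimum means. Restricting the members to those with unique whole reads left the same 13 genes. No paired analysis was possible because replicate numbers of the labels cannot be tied to the recovered libraries and no test was made. With 3 libraries per group an SD rests on 3 values, and members without a name, whatever their direction, were not seen.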
